A study of Saccharomyces cerevisiae S288C with 6 samples.

Results

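Messenger RNA of 34 genes for protein folding, translocation, glycosylation and degradation in the endoplasmic reticulum (ER) of budding yeast was compared between 3 libraries labelled wild type and 3 labelled ltv1 deletion. The genes were chosen by name, as the rows of the deposited table that carry these 34 symbols, out of 7126 rows. They fall into the unfolded protein response (2 genes), ER chaperones and prolyl isomerases (7), oxidative folding (6), ER-associated degradation (8), the translocon (6) and the oligosaccharyltransferase (5). All libraries came from the S288C background, the laboratory strain behind the reference genome. The wild type is strain EDS76 and the deletion is strain EDS615, with the genotype ltv1∆/ltv1∆, that is, without LTV1 on either copy. Each genotype is represented by 1 named strain, and the labels do not say whether the replicates were separate cultures, so p-values reflect no more than the spread among these samples. Ltv1 helps to assemble the small subunit of the ribosome, and the study asked what its loss changes in gene expression. Cells grew in rich medium (YPD) at 30 °C and were taken in exponential phase, at an optical density of 0.5 to 0.6.

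Proteins bound for the secretory pathway enter the ER through the Sec61 channel, are glycosylated as they emerge, and fold with the help of the Hsp70 chaperone Kar2 and of enzymes that form disulfide bonds. Proteins that fail to fold are sent back to the cytosol, ubiquitinated and degraded by the proteasome. When unfolded proteins build up, the sensor Ire1 cuts an unusual intron out of the HAC1 messenger RNA, and the Hac1 protein then switches on chaperone and folding genes.

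Values are normalized read counts, gene counts that the authors had divided by a size factor for each library, from Batch-Tag libraries, which read a tag near the 3' end of each RNA. The whole reads behind them came to between 1002573 and 1248710 per library, and a member had between 7 and 1059 reads in a library, with a median of 95. LTV1 itself did not follow the labels. Its values were 29.2, 191 and 8.77 in wild type 1, 2 and 3, and 680.1, 3.22 and 6.40 in the libraries labelled ltv1 deletion 1, 2 and 3 (exact two-sided permutation p = 1, where the smallest possible is 0.1). The library labelled ltv1 deletion 1 thus held the most LTV1 reads, and wild type 3 was close to the low libraries. Over all genes tested the libraries followed their labels. On the log2(value + 1) scale ltv1 deletion 1 correlated at 0.933 and 0.936 with the other deletion libraries and at 0.760 to 0.894 with wild type, and wild type 3 at 0.913 and 0.932 with the other wild type libraries and at 0.847 to 0.886 with the deletion. The sources used here do not state which part of the gene was deleted, and tags outside that part would check nothing. Wild type 1 stood apart in composition, with 5.66% of its signal from the glycolytic gene TDH3 against 1.33% to 2.88% in the other libraries. Of 17 genes specific to a mating type or to haploid cells, 13 had a mean under 10, and the summed level of all 17 was 124 to 265 per library. Among the 13 was MF(ALPHA)1, the main gene for the alpha pheromone, at 0 in 4 libraries and at no more than 1.94 in the rest. The others of the 17 were higher, with means over all libraries of 64.8 for STE4, 31.7 for STE6, 22.4 for STE2 and 15.8 for AXL1. Of the 17, NEJ1 was higher and STE4 lower in the deletion libraries in edgeR's test (adjusted p = 0.0474 and 0.0312), and their part in the results below was not tested. In bulk RNA, fewer cells expressing a gene and less of its RNA per cell cannot be told apart.

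Most of the 34 ER genes did not pass the test between the labels, and those that did were lower in the ltv1 deletion libraries. Of the 34, all of which passed the filter of a mean of at least 5, 0 rose and 2 fell, ERO1, the oxidase that feeds disulfide bonds into the ER, and STT3, the catalytic subunit of the oligosaccharyltransferase (limma on log2(value + 1), adjusted p of at most 0.05 over 5663 genes). That was 5.88% of the members, where 15.9% of all genes tested passed, 8.88% higher and 6.98% lower. At an unadjusted p under 0.05, 3 members were higher and 7 lower, where 17.8% and 16.9% of all genes were. In edgeR's quasi-likelihood test on the whole reads, HAC1 and SEC62 were higher and ERO1, STT3 and OST1 lower, where 10.5% of all genes were called higher and 9.25% lower. DESeq2 on the same reads called 2 members higher and 5 lower, adding PDI1 and UBC7 to the lower ones, where it called 11.2% of all genes higher and 10.1% lower. The values of the 2 labels did not overlap in 12 members (35.3%), 3 with the deletion above and 9 below. Of all genes tested 41.6% had no overlap, 21.6% with the deletion above and 20% below. The median log2 fold change of the members was -0.10, and that of all genes tested -0.02, with 20 of the 34 members below 0 and 50.8% of all genes. The authors' deposited table classed 1.21% of its rows as significant, and none of the 34 members among them. The settings of that test are not stated in the sources used here, so its calls need not answer the same question as limma's. The share of all genes that limma called depended on the libraries used. It was 10.3%, 17.3% and 9.68% when wild type library 1, 2 or 3 was left out in turn, and 3.18%, 3.36% and 0.424% for deletion library 1, 2 or 3. Leaving out the pair whose LTV1 reads go against the labels (wild type 3 with ltv1 deletion 1) gave 0.283%, with only 2 libraries per label in the fit.

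**Figure D1:**
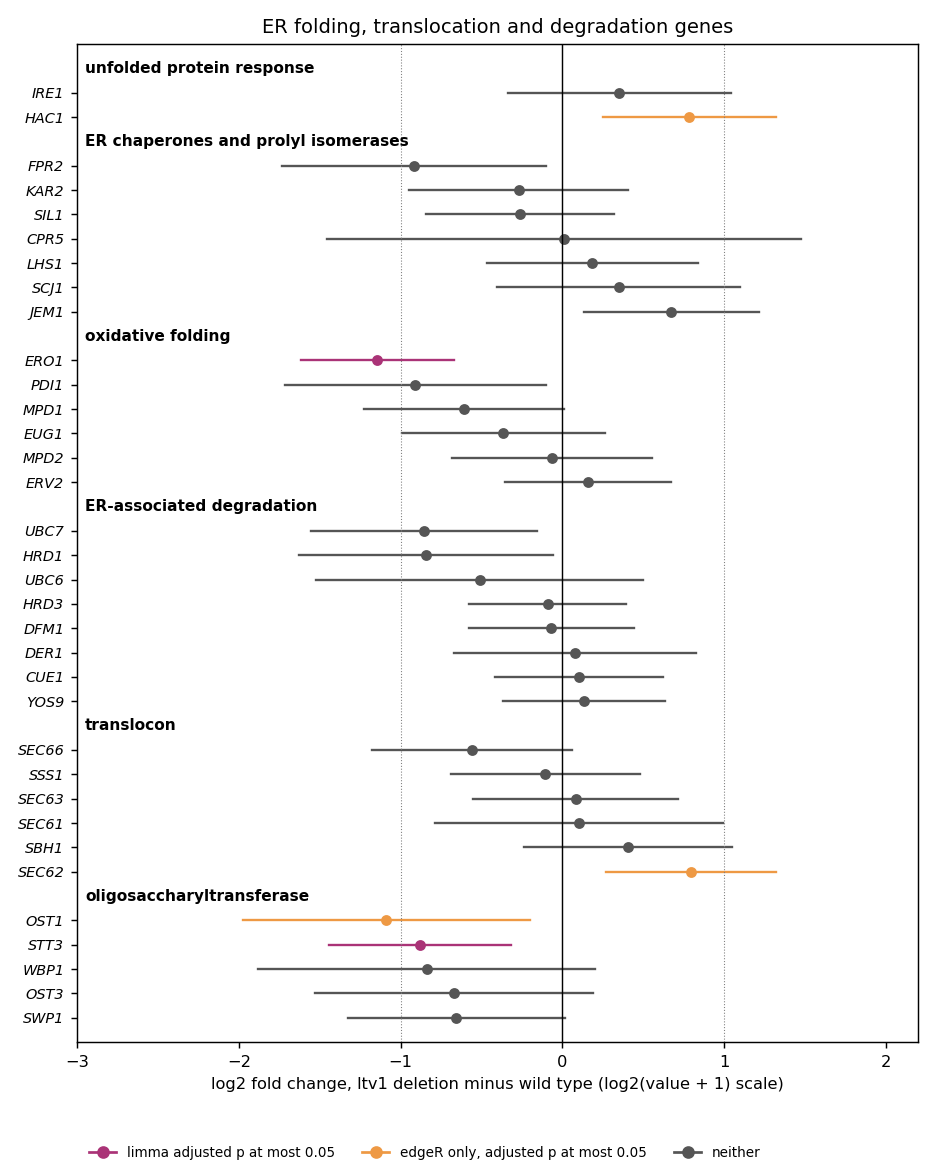
Log2 fold change of each of the 34 ER genes on the log2(value + 1) scale, positive where the deletion is higher, with its 95% interval from limma (3 libraries per label), grouped by sub-function; dotted lines mark -1 and 1, a 2-fold difference. ERO1 and STT3 (purple) passed in limma; HAC1, SEC62 and OST1 (orange) passed in edgeR and not in limma. All 5 oligosaccharyltransferase genes among the 34 lie below 0, between -1.09 and -0.66.

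The unfolded protein response is represented by its sensor kinase and nuclease IRE1 and its transcription factor HAC1. HAC1 (YFL031W, chromosome VI, 75179 to 76147, build R64) had 255, 329 and 318 normalized read counts in wild type 1, 2 and 3 and 515, 444 and 598 in ltv1 deletion 1, 2 and 3. Every deletion library lay above every wild type library. The difference was 1.72-fold (log2 fold change 0.78, standard error 0.23). It missed the threshold in limma, at an adjusted p of 0.0569, and passed in edgeR, at 0.0432. With any 1 library left out the limma log2 fold change was 0.67 to 0.89, and HAC1 did not pass (adjusted p = 0.0704 to 0.181). IRE1 had 63.2, 98.9 and 50.7 in wild type and 75.7, 86.0 and 102 in the deletion, values that overlapped. Its log2 fold change was 0.35, with a 95% interval of -0.34 to 1.04 (limma adjusted p = 0.425).

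A gene count of HAC1 pools its spliced and unspliced forms, which the deposited values do not separate. The 252-base intron that Ire1 removes is annotated inside the gene, and its ends are shown because they are where the pathway is switched. Capitals mark intron bases at the junctions, chrVI:75825-75854 and chrVI:76077-76106 on the plus strand of build R64, from RefSeq.
HAC1 5' junction: attggcgtaatccagCCGTGATTACGATGA
HAC1 3' junction: TGCTTGTACTGTCCGaagcgcagtcaggtt

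Among the ER chaperones and prolyl isomerases 0 of 7 passed the test (limma; 0 in edgeR, and 1 higher and 1 lower at an unadjusted p under 0.05), and the median log2 fold change was 0.01. KAR2, the Hsp70 of the ER lumen and the best known target of Hac1, had 441, 596 and 329 in wild type 1, 2 and 3 and 455, 305 and 355 in the deletion libraries. The groups overlapped, with the highest value in wild type 2 and the lowest in ltv1 deletion 2. Its log2 fold change of -0.27 had a 95% interval of -0.95 to 0.41 (limma adjusted p = 0.539), which leaves out a 2-fold difference. LHS1, the other lumenal Hsp70-type chaperone and a partner of Kar2, had 215, 267 and 157 in wild type and 296, 201 and 221 in the deletion. SIL1, which like Lhs1 exchanges the nucleotide of Kar2, ran from 20.5 to 29.2 in wild type and from 16.1 to 23.1 in the deletion. These groups overlapped too.

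JEM1 and SCJ1 encode J-domain proteins that stimulate Kar2. JEM1 had 17.5, 15.6 and 13.6 in wild type and 21.0, 30.1 and 25.6 in the deletion, without overlap, but the log2 fold change of 0.67 did not pass (limma adjusted p = 0.0865; edgeR adjusted p = 0.121). SCJ1 had 67.1, 130.2 and 78.9 in wild type and 151, 98.9 and 96.0 in the deletion, an overlap. The prolyl isomerase genes FPR2 and CPR5 held the largest and the smallest difference of the chaperone group. FPR2 had 50.5, 37.5 and 36.1 in wild type against 32.6, 22.6 and 12.8 in the deletion, also without overlap (log2 fold change -0.92, limma adjusted p = 0.111). CPR5 varied more within a label than between labels. It had 135, 89.6 and 332 in wild type and 68.3, 233 and 257 in the deletion, and its log2 fold change of 0.01 had a 95% interval of -1.46 to 1.47.

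KAR2 and LHS1 are 2 of the 34 members with the core of the unfolded protein response element, CAGCGTG, in the 300 bases before the coding start on either strand. Of 6001 promoters of that length, 1.23% hold it. ERO1, EUG1, MPD1 and SIL1 are among the 7 members with the shorter core TACGTG, which 8.22% of promoters hold. The windows are shown because they are the letters that Hac1 is known to read in genes of this kind; a match is a description and not a site shown to be bound. Capitals mark the match, on the strand of the gene or as its reverse complement, and sequences and positions are from the RefSeq genome, build R64.
KAR2, chrX:381143-381197, plus strand: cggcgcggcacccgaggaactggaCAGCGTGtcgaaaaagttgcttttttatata
LHS1, chrXI:296307-296361, plus strand: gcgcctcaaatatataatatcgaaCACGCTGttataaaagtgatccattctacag
ERO1, chrXIII:13284-13337, minus strand: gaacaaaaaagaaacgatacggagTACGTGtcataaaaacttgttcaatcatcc
EUG1, chrIV:1478410-1478463, plus strand: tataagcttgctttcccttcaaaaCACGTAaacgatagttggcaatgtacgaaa
MPD1, chrXV:853150-853203, minus strand: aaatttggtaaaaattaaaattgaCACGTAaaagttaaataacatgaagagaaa
SIL1, chrXV:267602-267655, minus strand: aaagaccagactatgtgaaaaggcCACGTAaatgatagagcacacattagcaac

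The log2 fold changes of these 6 genes were -0.27 for KAR2, 0.18 for LHS1, -1.14 for ERO1, -0.36 for EUG1, -0.61 for MPD1 and -0.26 for SIL1. The other 3 members with TACGTG, HRD1, YOS9 and SSS1, stood at -0.84, 0.13 and -0.11. Of these 9 genes ERO1 passed the limma test, and differences among them were not tested.

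In oxidative folding, 1 of 6 genes fell, ERO1, where 6.98% of all genes fell, and 5 of 6 log2 fold changes were below 0, where 50.8% of all genes were. ERO1 (YML130C, chromosome XIII, 11483 to 13174, build R64) had 413, 377 and 402 normalized read counts in wild type 1, 2 and 3. In ltv1 deletion 1, 2 and 3 it had 162, 190.2 and 186. The values within a label were close together and the labels lay far apart, at 397 ± 18.4 and 179.5 ± 15.4 (SD, n = 3 each). ERO1 was thus 2.21-fold lower in the deletion (log2 fold change -1.14, standard error 0.20, limma adjusted p = 0.0172; edgeR adjusted p = 0.00923). In the authors' deposited table the log2 fold change of ERO1 was -1.04 (standard error 0.25), with an adjusted p of 0.334. The sources used here do not state what size of change the authors' test was made against. Their p-value and limma's thus need not answer the same question. Leaving out 1 library kept the log2 fold change between -1.19 and -1.07, but the limma call ended without ltv1 deletion 1, 2 or 3 (adjusted p = 0.0612, 0.0570 and 0.0712). It was -1.06 (adjusted p = 0.110) with wild type 3 and ltv1 deletion 1 both left out.

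ERO1 lies 187 bases from the end of a convergent gene, YML131W, and the sources used here do not state the strand used in counting, so reads from the 2 genes cannot be told apart where their transcripts meet. YML131W had 362, 53.1 and 149 in wild type 1, 2 and 3 and 5.26, 11.8 and 6.40 in the deletion (log2 fold change -4.09, limma adjusted p = 0.0145). Both genes had the same order of libraries within each label, wild type 1, 3 and 2 and ltv1 deletion 2, 3 and 1 from high to low, with a range of 53.1 to 362 for YML131W and of 377 to 413 for ERO1 in wild type. The part of YML131W in the ERO1 value was not tested. ERO1 is 1 of 20 members with a convergent downstream neighbour, and the same limit holds for all of them. Among those nearer to theirs than ERO1 are SIL1, SWP1, WBP1 and OST3, at 94, 99, 122 and 133 bases.

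The disulfide isomerase gene PDI1, the main partner of Ero1, had 363, 162 and 168 in wild type 1, 2 and 3 and 119, 127 and 97.8 in the deletion. The groups did not overlap, and wild type 1 was far above the rest. The log2 fold change was -0.91 (limma adjusted p = 0.110; edgeR 0.0573; DESeq2 0.0279), and -0.53 without wild type 1. MPD1, another member of the Pdi1 family, had 148, 110.4 and 105 against 76.7, 99.96 and 62.1, also without overlap, at a log2 fold change of -0.61 (limma adjusted p = 0.149). The other Pdi1 relatives overlapped between labels. EUG1 had 176, 184 and 118 in wild type and 151, 106 and 111 in the deletion, and MPD2 had 61.2, 68.7 and 60.4 against 45.2, 60.2 and 81.3. ERV2, an Ero1-independent oxidase of the lumen, ran from 14.6 to 19.4 in wild type and from 16.8 to 20.4 in the deletion. It overlaps another annotated gene, YPR038W, which makes its count less certain.

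**Figure D2:**
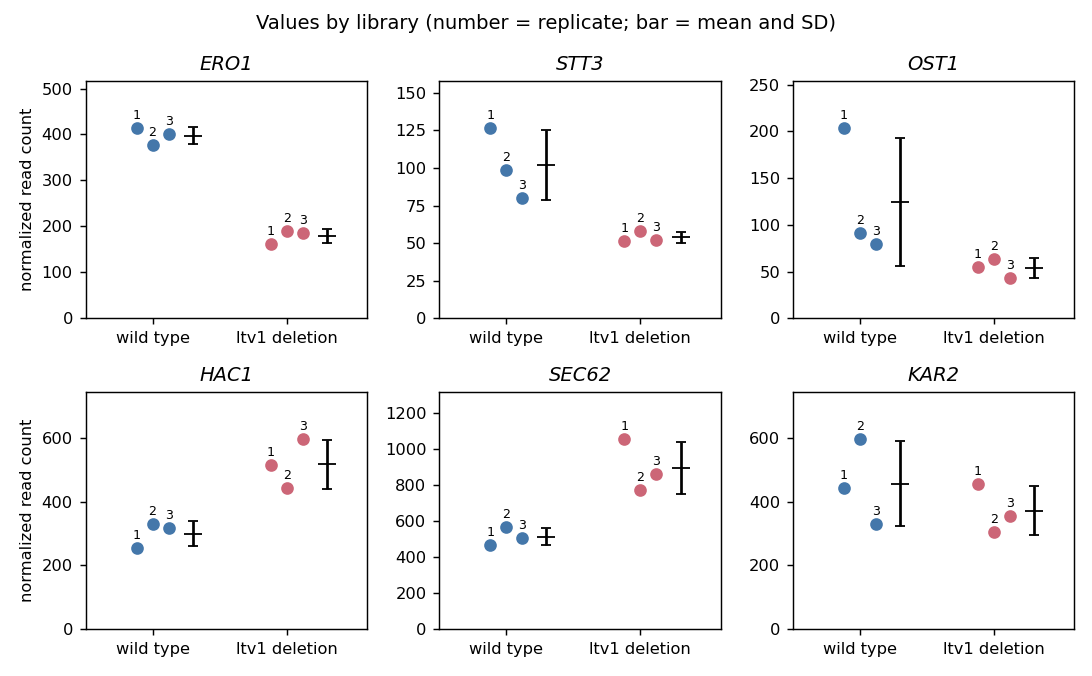
Normalized read counts of 6 ER genes in the 3 wild type (blue) and 3 ltv1 deletion (red) libraries; points are libraries with their replicate number, and the bar beside them is the mean ± SD (n = 3). ERO1 lies between 377 and 413 in wild type and between 162 and 190.2 in the deletion, wild type 1 is highest for STT3 and OST1, and KAR2 overlaps.

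The oligosaccharyltransferase transfers a preassembled sugar chain to nascent proteins. Of its genes, 5 are among the 34 members, and other subunits are given below. All 5 had a log2 fold change below 0, where 50.8% of all genes did, with a median of -0.84. In limma 1 of them fell, STT3, where 6.98% of all genes fell, and edgeR also called OST1. STT3 (YGL022W, chromosome VII, 452404 to 454560, build R64) had 126, 98.9 and 79.9 in wild type 1, 2 and 3 and 51.5, 58.0 and 52.1 in ltv1 deletion 1, 2 and 3. The groups did not overlap, at 101.7 ± 23.3 and 53.9 ± 3.62 (SD, n = 3 each). The difference was 1.84-fold (log2 fold change -0.88, standard error 0.24, limma adjusted p = 0.0466; edgeR adjusted p = 0.0238).

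OST1, whose protein is a subunit of the same complex, had 203, 91.6 and 78.9 in wild type and 54.7, 63.4 and 43.0 in the deletion. Its groups did not overlap either (log2 fold change -1.09, limma adjusted p = 0.0890; edgeR adjusted p = 0.0448). WBP1, an essential subunit, had 339, 118 and 129 against 103, 127 and 67.6. OST3, an oxidoreductase-like subunit, had 74.8, 38.5 and 28.3 against 32.6, 22.6 and 26.5, and SWP1, an essential subunit, 21.4, 12.5 and 16.6 against 10.5, 7.52 and 12.8. WBP1, OST3 and SWP1 overlapped between labels, and their limma adjusted p-values were 0.220, 0.234 and 0.151.

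Wild type 1 held the highest value of all 5 oligosaccharyltransferase members, where it was the highest library for 28.0% of all genes tested. On the log2(value + 1) scale, the mean of the 5 genes stood 1.07 above their average over the 6 libraries in wild type 1, and at 0.13 and 0.04 in the other wild type libraries. It was -0.33, -0.39 and -0.52 in the deletion libraries. Without wild type 1 their median log2 fold change was -0.48, with 0 of the 5 called by limma, and STT3 stood at -0.71 (adjusted p = 0.0891). With any 1 library left out the log2 fold change of STT3 was -1.04 to -0.71 and the call ended (adjusted p = 0.0507 to 0.141). The call also ended without a filter on low values (adjusted p = 0.0712) and with quantile normalization (adjusted p = 0.0535).

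**Figure D3:**
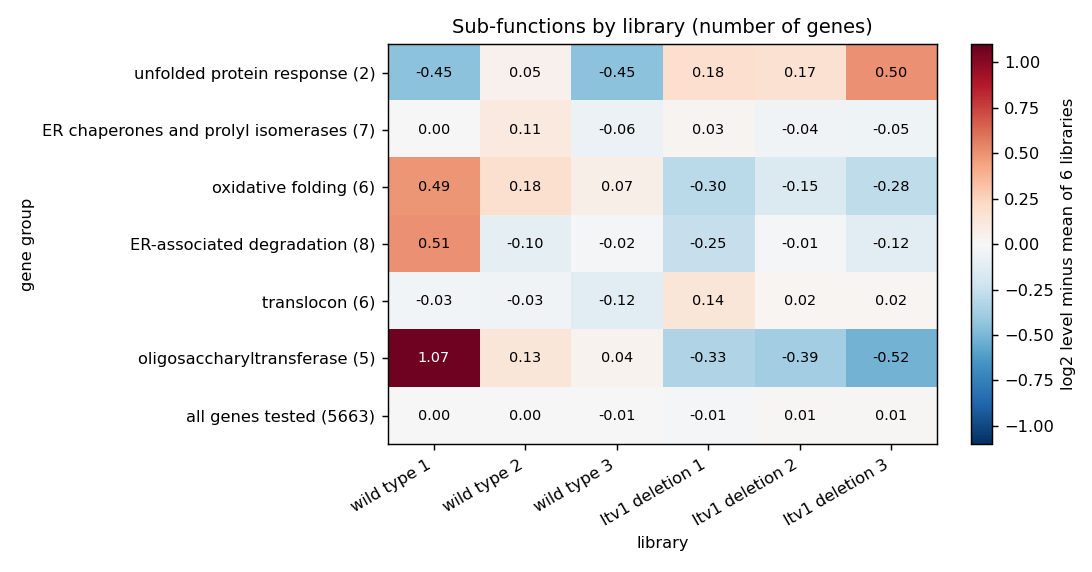
Mean log2(value + 1) level of each sub-function in each of the 6 libraries, minus the mean over all 6 libraries, with the number of genes in brackets; red is higher and blue lower. Wild type 1 stands at 1.07 for the oligosaccharyltransferase and at 0.49 and 0.51 for oxidative folding and ER-associated degradation, while the chaperones stay between -0.06 and 0.11.

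The translocon genes had a median log2 fold change of 0.09, and 0 of 6 passed in limma (1 higher and 0 lower at an unadjusted p under 0.05; edgeR called 1 higher). SEC62, part of the complex that receives finished proteins from the cytosol, was that gene. SEC62 (YPL094C, chromosome XVI, 369839 to 370663, build R64) had 468, 567 and 507 in wild type 1, 2 and 3 and 1055, 774 and 861 in ltv1 deletion 1, 2 and 3, with no overlap. It was 1.73-fold higher in the deletion (log2 fold change 0.79, standard error 0.22, limma adjusted p = 0.0513; edgeR adjusted p = 0.0410). With any 1 library left out the limma log2 fold change was 0.67 to 0.89, and SEC62 did not pass (adjusted p = 0.0631 to 0.151).

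The genes of the partners of Sec62 did not pass in limma or in edgeR. SEC63, a J-domain subunit that recruits Kar2, had 487, 419.7 and 592 against 397, 536 and 672, and its log2 fold change of 0.08 had a 95% interval of -0.55 to 0.71. SEC66, a smaller subunit of the same complex, had 248, 141 and 166 against 114, 132 and 119.7, lower in every deletion library but not past the threshold (log2 fold change -0.56, limma adjusted p = 0.181). SEC61, the channel itself, had 587, 1036 and 494 in wild type and 1113, 603 and 555 in the deletion. Wild type 2 and ltv1 deletion 1 were the high libraries, 1 in each label, and the fold change was close to 0 (0.10, 95% interval -0.78 to 0.99). SSS1 and SBH1, the small subunits of the channel, had log2 fold changes of -0.11 and 0.41 with overlapping values. The difference between SEC62 and its partners was not tested.

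SEC62 shares its upstream region with NOG1, a GTPase gene of large-subunit assembly that is transcribed the other way, with 314 bases between the coding regions. NOG1 had 94.3, 422 and 267 in wild type and 1599, 1260 and 1278 in the deletion (log2 fold change 2.63, limma adjusted p = 0.0201). DFM1, a derlin of ER-associated degradation, is arranged in the same way with RRP17, a ribosomal RNA processing gene 298 bases away. RRP17 had 19.4, 50.0 and 57.5 against 133.5, 193 and 192 (log2 fold change 2.12, adjusted p = 0.0203), while DFM1 had 125, 139.5 and 111 against 104, 121 and 133 and a log2 fold change of -0.07. Both neighbours were picked after their values were seen. Of 18 members with a divergent upstream neighbour 4 had one that passed the threshold, where 15.9% of all genes tested passed. The divergent neighbours of SEC61 and SEC63 were not among the genes tested. The letters GATGAG, the PAC element of ribosome assembly genes, occur in 7 of the 34 member promoters and in 19.1% of all 6001. They occur 2 times in the 300 bases before SEC62, JEM1 and CUE1, where 2.95% of promoters hold 2 or more, and once before DFM1. The log2 fold changes of JEM1 and CUE1 were 0.67 and 0.10. These windows are shown to set both promoters side by side, with the matches on either strand in capitals.
SEC62, chrXVI:370811-370899, minus strand: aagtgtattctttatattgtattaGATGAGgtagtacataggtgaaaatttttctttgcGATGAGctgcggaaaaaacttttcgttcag
DFM1, chrIV:1294547-1294600, minus strand: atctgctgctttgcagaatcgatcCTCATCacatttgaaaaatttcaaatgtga

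**Figure D4:**
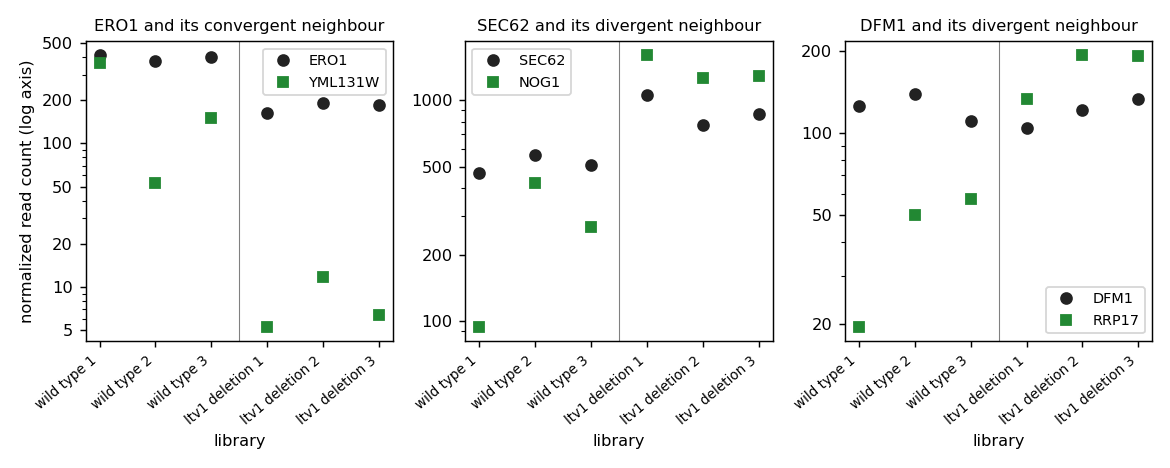
Normalized read counts (log axis) of ERO1, SEC62 and DFM1 (circles) and of one annotated neighbour each (squares) in the 6 libraries, wild type left of the line and ltv1 deletion right of it. YML131W spans 53.1 to 362 where labelled wild type and 5.26 to 11.8 where labelled deletion, NOG1 and RRP17 are higher in every deletion library, and DFM1 stays between 104 and 139.5.

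Of 8 genes for ER-associated degradation 0 passed the test (limma; 0 in edgeR, and 0 higher and 2 lower at an unadjusted p under 0.05), and the median log2 fold change was -0.08. UBC7, the ubiquitin-conjugating enzyme of the pathway, had 477, 236 and 364 in wild type and 164, 216 and 194 in the deletion, without overlap. It stood at -0.86 (limma adjusted p = 0.0902, edgeR 0.0534, DESeq2 0.0235). Without wild type 2 it passed in limma at -1.13 (adjusted p = 0.0339). With any other 1 library left out it did not pass (limma adjusted p = 0.147 to 0.220), and without wild type 1 it stood at -0.62. HRD1, the ubiquitin ligase that Ubc7 serves, had 53.5, 25.0 and 23.4 against 18.9, 17.2 and 15.5, again with wild type 1 the highest (log2 fold change -0.84, limma adjusted p = 0.124; -0.47 without wild type 1). HRD3, the partner that stabilizes Hrd1, had 106, 88.5 and 93.6 against 82.0, 96.7 and 91.4. CUE1, which anchors Ubc7 at the membrane, ran from 69.8 to 96.5 in wild type and from 88.1 to 97.8 in the deletion.

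The remaining degradation genes overlapped between labels. DER1, the first derlin, YOS9, the lectin that reads trimmed sugar chains, and UBC6, the membrane-bound conjugating enzyme, had log2 fold changes of 0.08, 0.13 and -0.51. UBC6 had 63.2 in wild type 1 and 18.9 to 25.8 in the other 5 libraries, and without wild type 1 its log2 fold change was 0.0017. For 14 of the 34 members the 95% interval of the log2 fold change lay between -1 and 1, which leaves out a 2-fold difference, and for the other 20 it did not.

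Of 85 tested genes of the same pathway outside the 34, listed by function, 3 were lower and 0 higher in limma (3.53% called, where 6.98% of all genes were lower and 8.88% higher). Before adjustment, 3 were higher and 13 lower at p under 0.05, where 17.8% and 16.9% of all genes were. In edgeR 1 was higher and 6 lower, where 10.5% and 9.25% of all genes were. ASI2, of a ubiquitin ligase complex of the inner nuclear membrane, had 82.6, 104 and 79.9 in wild type and 25.2, 30.1 and 34.7 in the deletion, a log2 fold change of -1.54 (limma adjusted p = 0.0131). USA1, the scaffold that joins Hrd1 and Der1, had 40.8, 36.4 and 29.2 against 16.8, 10.7 and 20.1 (-1.14, adjusted p = 0.0346). The third was ALG6, a glucosyltransferase that acts on the sugar chain before it is transferred. It had 400.4, 360.3 and 291 against 214, 155 and 162 (-0.99, adjusted p = 0.0331). In all 3 the labels did not overlap. ASI1 and ASI3, of the same complex as ASI2, stood at -0.01 and 0.25 and did not pass (limma adjusted p = 0.972 and 0.457). Leaving out ltv1 deletion 3 alone, or wild type 3 together with ltv1 deletion 1, left 0 of the 85 past the threshold in limma, and leaving out any other 1 library left 1 or 2.

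By function, the other degradation factors had 2 of 10 lower in limma (ASI2 and USA1), where 6.98% of all genes were lower. Their median log2 fold change was -0.45. Lipid-linked oligosaccharide synthesis had 1 of 16 lower and a median of -0.24. No gene passed in limma among the 8 genes of the signal recognition particle and its receptor (median 0.26), the 13 of the COPII coat and its cargo receptors (-0.24) or the 13 of tail-anchor and membrane insertion (-0.23). Before adjustment, 2 genes of those 3 lists were higher and 2 lower at p under 0.05, where 17.8% and 16.9% of all genes were. In edgeR's test 1 was lower, the cargo receptor gene ERV29 (adjusted p = 0.0322), where 9.25% of all genes were lower. All 8 log2 fold changes of the signal recognition particle list were above 0, from 0.07 to 0.72, where 50.8% of all genes were below 0. The 3 tested oligosaccharyltransferase subunits outside the 5 members, OST2, OST5 and OST6, stood at -0.05, -1.19 and -0.44 and did not pass (limma adjusted p of 0.262 or more).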

How the data were processed

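Batch-Tag libraries with inline molecular identifiers were sequenced as single-end reads, per the labels' protocols. The genome build was R64 and the tools included STAR, Salmon and DESeq2 1.34.0, per the submitters' processing notes. The sources used here do not state settings, strand or how the identifiers were used. The authors deposited 1 table of 7126 rows with a normalized signal per gene and library, a log2 fold change with its standard error, and p-values. Divided by its library's smallest non-zero value, 100% of the signal came out whole (tolerance 0.01), so whole reads could be recovered. The depth was 1002573 to 1248710 reads per library. The mean in the authors' deposited table was not that of the 6 libraries, and in 94 rows it was above 0 where all 6 were at 0.

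Groups came from the labels. Main test: limma 3.58.1 in R 4.3.3 on log2(value + 1), genes whose mean over all libraries reached 5, neither trend nor robust option, Benjamini-Hochberg adjustment over 5663 genes, threshold 0.05, fold changes as ltv1 deletion minus wild type. The log2(value + 1) scale understates the change of low genes. Alternatives were edgeR 4.0.16 with TMM, DESeq2 1.42.0 and limma-voom, all on recovered reads, other scalings, filters and pseudocounts, a replicate block, and left-out libraries. The limma procedure was also run on simulated counts with a common dispersion and the same composition in each library but for the planted changes. Wild type 1 stood apart in composition here, so that run is no measure of error in these data. Members and lists were chosen with earlier results of these data known. Values were given for each library for members past the threshold in limma or edgeR, for HAC1, IRE1 and KAR2, and for the members with the largest and the smallest fold change of each sub-function; several others were added after their values were seen. Of each other list up to 4 genes past the threshold were named, and a few others were added after their values were seen. Coordinates and sequences are RefSeq's, build R64, to which 6048 of 7126 identifiers matched by locus tag.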

Additional observations from a re-analysis of the deposited data

How the results depend on the processing

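Of 601 results for single members under 18 alternatives, 545 kept their direction and their side of the threshold, 18 passed it newly, 15 lost it and 23 changed sign. The cause of these changes was not tested. Over all genes limma called 503 higher and 395 lower. These numbers were 279 and 151 with the replicate block, 10 to 530 and 14 to 447 with 1 library left out, and 12 and 4 when wild type 3 and ltv1 deletion 1 were both left out. Members called higher numbered 2 with a pseudocount of 5, with a mean of at least 50, with limma's trend and robust options, and in edgeR, DESeq2 and limma-voom, 1 (SEC62) with TMM scaling, and 0 with 1 library left out. Members called lower numbered 1 without a filter and with quantile normalization, 5 in DESeq2, 0 with the replicate block and without both libraries, and 0 to 2 with 1 library left out. With the replicate block, ERO1 was at an adjusted p of 0.0547 and STT3 at 0.108. Replicate numbers did not pair the samples: the deviations of libraries with numbers 1, 2 and 3 correlated at -0.11, -0.20 and 0.07 across genes, and wild type 2 correlated best with ltv1 deletion 1 (0.28). Of the other ER pathway genes 3 were called, against 6 with a pseudocount of 5, 1 without a filter, 9 with a mean of at least 50, 5 with quantile normalization, 8 with trend and robust options, 7 in edgeR, 8 in DESeq2, 7 in limma-voom, 1 with the block, 0 without both libraries and 0 to 2 with 1 library left out. The members' median log2 fold change of -0.10 was -0.31 without both libraries and -0.26 to -0.10 with 1 left out. The LTV1 log2 fold change, -0.47 in limma, was 1.59 in edgeR and -2.78 to 0.89 with 1 library left out. Signs turned in 10 members, and 0 of these values passed; UBC6, at -0.51 with all libraries, turned without wild type 1. With quantile normalization CPR5, SEC61 and SEC63 stood at -0.0061, -0.044 and -0.087. Without both libraries LHS1, MPD2 and SEC61 stood at -0.18, 0.11 and -0.43. With 1 library left out the ranges were -0.019 to 0.36 for LHS1, -0.40 to 0.62 for CPR5, -0.28 to 0.14 for MPD2, -0.15 to 0.31 for DER1, -0.15 to 0.028 for DFM1, -0.041 to 0.19 for CUE1, -0.81 to 0.0017 for UBC6, -0.21 to 0.42 for SEC61, -0.10 to 0.28 for SEC63 and -0.30 to 0.064 for SSS1. Depth limits SWP1 and SBH1 most, with 7 and 9 reads in their lowest libraries.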

Other observations

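Within each label, some ER genes had the same library highest or lowest, counted by rank whatever the size of the gap. Wild type 2 and ltv1 deletion 1 were the highest libraries of their labels in 8 of the 34 members (23.5%, where 17.2% of all genes tested had that order), namely KAR2, LHS1, SIL1, SCJ1, EUG1, SEC61, SEC62 and SSS1. They were the lowest of their labels in 9 members (26.5%, against 15.8% of all genes), namely CPR5, ERO1, ERV2, HRD3, UBC7, UBC6, YOS9, SEC63 and SEC66. These are also the 2 libraries with the most LTV1 reads, 183 in wild type 2 and 647 in ltv1 deletion 1. SEC61 had 1036 and 1113 in them and 494 to 603 in the other 4 libraries, and CPR5 had 89.6 and 68.3 against 135 to 332. The pattern was noticed in the data, and no test was made of it.

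Several ER genes lie beside genes that differed far more than they did. The neighbours given here were picked after their values were seen, and 15.9% of all genes tested passed the threshold in limma. HCA4, a helicase gene of ribosome assembly downstream of KAR2, had 18.5, 105 and 54.6 in wild type and 574, 535 and 455 in the deletion. RRP1, another assembly gene, ends upstream of SSS1 on the same strand and had 41.8, 108 and 90.6 against 334, 340 and 319. MPD1 lies between YOR289W, at a log2 fold change of -2.14, and RRP36, at 2.37, and its own was -0.61.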
